A study of Mus musculus with 12 samples.

Results

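Distal chromosome 6 was taken as every array probe on mouse chromosome 6 that starts at or beyond chr6:56518661 on the mm9 build, and it held 2641 of the 88737 probes (2.98%). These probes lay in 445 loci, with a new locus begun wherever the gap to the next probe exceeded 1000 bp, and reached to chr6:149310056, over 92.8 Mb. The other 1399 probes of the chromosome, in 235 loci that all end at or before chr6:55402486, served as proximal chromosome 6, and 0 probes lay in the 1.12 Mb between. The bound had been set where the unprecipitated DNA of 1 line changed level, so that level is given as a description and carries no test.

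The arrays carried DNA of 4 mouse ES cell lines, with 3 replicates of each line and 1 array for each replicate. CC9mus, CC9spretus, CC9dunni and CC9pahari carried mtDNA of Mus musculus, Mus spretus, Mus terricolor and Mus pahari, in that order. All 4 were made from CC9.3.1 ES cells of a 129SvEv-Gpi1c(129S6) embryo, which were depleted of mitochondria and fused with enucleated cells of the mtDNA donor, and CC9mus carried the mtDNA type of the parental line. Cells were grown on mitomycin C-treated embryonic fibroblasts with LIF and kept for 48 h without feeders before DNA was extracted. Each mtDNA type was represented by 1 line, so that a difference between lines cannot be told apart from the history of a single line. The labels number the replicates without saying whether they came from separate cultures, so the p-values measure only the spread between these arrays, which may be technical.

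Methylated DNA immunoprecipitation (MeDIP) enriches sheared, denatured DNA with an antibody against 5-methylcytosine. On each array the precipitated DNA (IP) was read in Cy5 beside unprecipitated DNA (input) in Cy3, and the log2 ratio of IP over input is the measure of methylation. Input reads the amount of DNA of a region, so a region present in more copies is brighter in input and supplies more DNA to the precipitation as well. Distal mouse chromosome 6 carries Nanog, a homeodomain transcription factor of the pluripotent state, and Dppa3, which encodes the maternal factor STELLA that guards the early embryo's genome against demethylation. In RefSeq the genes around them include, in order, Gdf3, Dppa3, Nanog and Slc2a3, where Gdf3 encodes a growth factor of the TGF-beta family and Slc2a3 a glucose transporter.

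The 250 bases before the first annotated Nanog start are printed because Nanog gives the interval at the end of the results its name. They are RefSeq sequence at chr6:122707239-122707488 of GRCm38.p6, plus strand, and capitals mark each CG, the dinucleotide in which mammalian DNA is methylated.

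Nanog: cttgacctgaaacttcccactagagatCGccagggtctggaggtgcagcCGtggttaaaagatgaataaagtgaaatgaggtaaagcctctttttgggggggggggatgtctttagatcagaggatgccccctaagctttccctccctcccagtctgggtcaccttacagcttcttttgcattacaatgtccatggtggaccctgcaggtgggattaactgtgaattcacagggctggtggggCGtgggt

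This stretch held 3 CG, against a median of 6 over the same 250 bases of 32851 RefSeq promoters, and 37.8% of those promoters held 3 or fewer. The motif searched was CG, which reads the same on both strands, and 92.1% of the promoters held at least 1. The array positions are on mm9 and this sequence is not, so no probe was placed on it.

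The arrays of 1 line stood apart before any comparison. The SD of the ratio over all probes was 0.53, 1.85 and 2.01 in CC9mus replicates 1, 2 and 3, and 1.09 to 1.38 in the 9 arrays of the other lines. All CC9mus arrays were scanned in the later scan period, together with replicate 3 of each other line, and no slide held CC9mus beside another line. The 3 CC9mus arrays were scanned on 1 day, on which no other array was scanned, so that CC9mus and its scan day cannot be told apart in any comparison, those within the later scan period included. Outside chromosome 6, the mean input of a chromosome in CC9mus differed from the other arrays by -0.25 (chromosome 8) to 0.11 (chromosome 15). In the segment, the input was well above background at 92.2 to 99.9% of probes and the IP at 79.3 to 99.1%.

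CC9mus held more input DNA on distal chromosome 6 than the other lines, over nearly the whole segment. For each array the median over segment probes was taken of the log2 input, centred on the array and set against the probe's mean over the 12 arrays, and the same median over proximal probes was subtracted. This input difference was 0.43, 0.44 and 0.45 in CC9mus replicates 1, 2 and 3. It was -0.10, -0.12 and -0.11 in CC9spretus, -0.16, -0.17 and -0.17 in CC9dunni, and -0.12, -0.11 and -0.11 in CC9pahari. The common mean holds CC9mus and so lowers the values of the other lines, and CC9mus did not overlap with any of them. In CC9dunni a stretch of low input described below also enters: its mean of -0.16 was -0.13 without that stretch. CC9mus averaged 0.44 ± 0.0093 (SD, n = 3) and the other arrays -0.13 ± 0.027 (SD, n = 9), a difference of 0.57.

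Between pairs of lines the same step was seen without the common mean. The median input of segment probes in CC9mus was 1.47 times that in CC9spretus and 1.49 times that in CC9pahari, while on proximal chromosome 6 the same ratios were 0.999 and 1.02. CC9spretus and CC9pahari differed by a median of 0.03 log2 in the segment and 0.02 on proximal chromosome 6. As a scale for these values, 3 copies in place of 2 would give 0.58 on the log2 scale. Copy number was not measured, and its part in the input level was not tested.

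**Figure D1:**
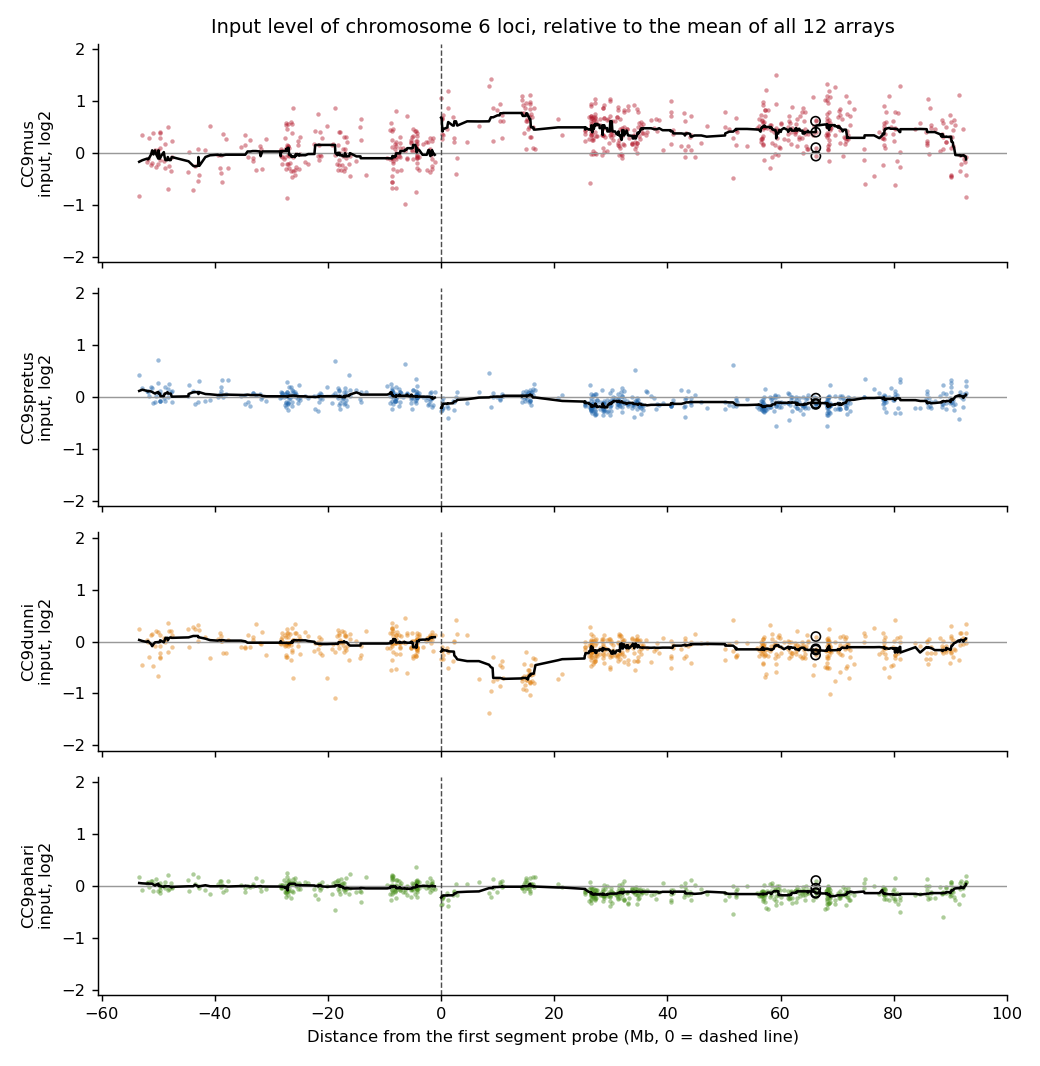
Input of each chromosome 6 locus (points, log2 relative to the mean of all 12 arrays, mean of 3 arrays) against the distance from the first segment probe in Mb, 1 panel a line, with a running median over 21 loci (black) and rings on the 4 loci of the Nanog-Dppa3 interval. The CC9mus loci step up at 0 and return near 0 at the distal end, and CC9dunni shows a low stretch that starts within 10 Mb of the segment start.

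The bound lay between the following loci. The last proximal probes, chr6:55402277-55402321, chr6:55402357-55402401 and chr6:55402442-55402486, had a CC9mus input of -0.67, -0.10 and -0.13 relative to the mean of the arrays. The first segment probes, chr6:56518661-56518705, chr6:56518802-56518846 and chr6:56518926-56518970, had 1.20, 0.92 and 0.42. By locus, CC9mus input minus the mean of CC9spretus and CC9pahari was 1.42 at the first segment locus and -0.13 at the last proximal one. The next proximal locus, chr6:55067396-55068250, had 0.40 with CC9mus above all 9 other arrays, and the one before it, chr6:54987813-54988508, had -0.22. These values lie on either side of the bound and were part of how it was set.

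At 1258 of the 2615 segment probes with a value on all arrays (48.1%), the 3 CC9mus input arrays lay above all 9 others, where the background over all probes was 16.9%. On proximal chromosome 6 the share was 15.9%. The reverse order, all 3 CC9mus arrays below the 9 others, was found at 43 segment probes (1.64%), at 16.0% of proximal probes and at 14.9% of all probes. CC9mus input thus stood apart from the other lines at many probes all over the genome in both directions, and on distal chromosome 6 nearly always upward. By locus, CC9mus lay above all 9 other arrays at 304 of 445 segment loci (68.3%) and at 42 of 235 proximal loci (17.9%), where the background over all 14580 loci of the array was 20.6%.

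Along the segment the gain lay between 0.44 and 0.68 until the last part. In steps of 10 Mb from the first probe, the median CC9mus input minus the mean of CC9spretus and CC9pahari was 0.67, 0.67, 0.68, 0.52, 0.44, 0.61, 0.61, 0.55 and 0.53 on the log2 scale. Beyond 90 Mb, with 116 probes, it was 0.14. In each step, the last included, the lowest CC9mus array lay above the highest of the other 9, with 0.07 against 0.05 beyond 90 Mb. The last 10 loci, from chr6:148159894 to chr6:149310056, held no locus at which the CC9mus arrays lay above the 9 others, and 7 of the 10 had a CC9mus input below that of CC9spretus and CC9pahari. This end was picked after its values were seen.

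CC9dunni carried a stretch of low input inside the segment. From chr6:63205942 to chr6:77929753, 40 neighbouring loci with 287 probes all had a CC9dunni input lower than the mean of CC9spretus and CC9pahari by more than 0.3, with differences of -0.34 to -1.74 and a median of -0.64. The stretch was defined from these values as the longest such run, so its depth is a description. Its median input was -0.59, -0.59 and -0.92 in CC9dunni replicates 1, 2 and 3, relative to the mean of the 12 arrays. In the rest of the segment the CC9dunni arrays had -0.12, -0.12 and -0.15, and CC9spretus and CC9pahari within the stretch had 0.0053 to 0.05.

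The cut of 0.3 set the edges of the stretch, so the loci next to the stretch had to miss it. The locus before the stretch, chr6:61130028-61131021, had a CC9dunni input of 0.24 relative to CC9spretus and CC9pahari. The locus after the stretch, chr6:81873499-81874071, had 0.03. Inside, the first locus had -0.82 and the last had -0.36, and at the last the CC9dunni arrays overlapped with the others. The CC9dunni input was 0.632 times that of CC9pahari in the stretch and 1.03 times in the rest of the segment. At 132 of 281 complete probes of the stretch (47.0%) the 3 CC9dunni arrays lay below all 9 others, where the background was 4.43%. CC9mus was high within the stretch too, with 0.65, 0.67 and 0.75.

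**Figure D2:**
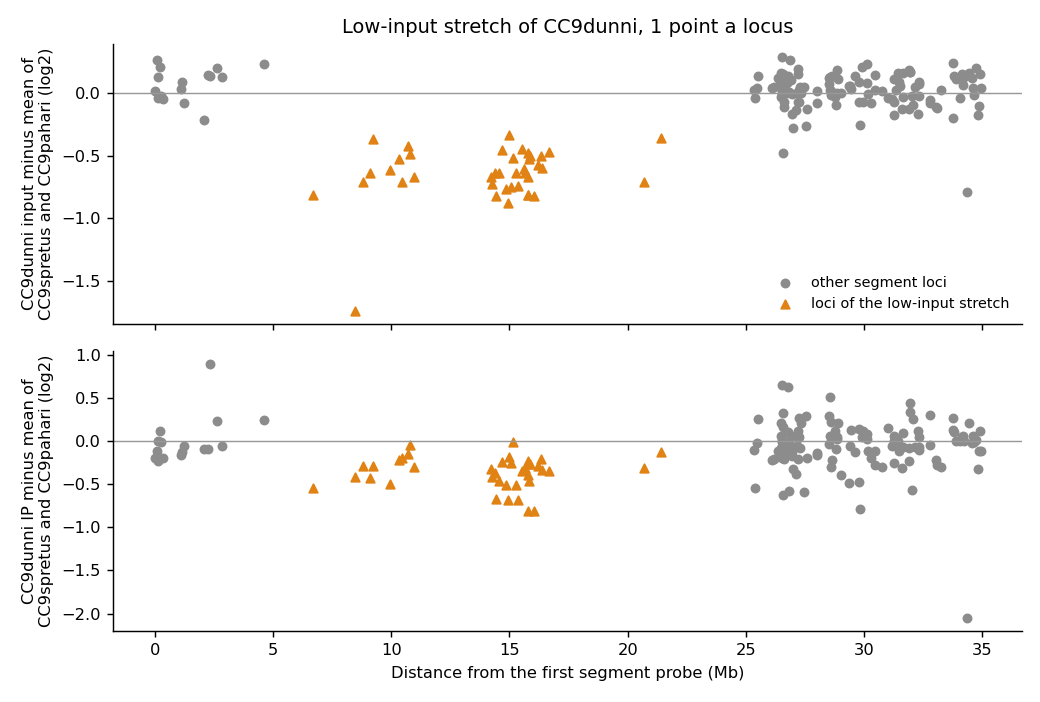
CC9dunni input (top) and IP (bottom) minus the mean of CC9spretus and CC9pahari, log2, at each locus in the first 35 Mb of the segment. The 40 loci of the low stretch (triangles) lie at -0.34 to -1.74 in input and at -0.81 to -0.01 in IP, and the loci on either side scatter around 0.

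The IP signal was low in the same stretch. The median IP was -0.31, -0.32 and -0.71 in CC9dunni replicates 1, 2 and 3, against -0.10 to 0.05 in CC9spretus and CC9pahari. All 40 loci had a CC9dunni IP below the mean of those lines, with a median difference of -0.33. Outside the stretch the CC9dunni IP was below that mean at 240 of 405 segment loci and at 145 of 235 proximal loci. In the stretch, the 3 CC9dunni arrays lay below all 9 others at 29 probes (10.3%), where the background was 0.691%. The ratio of IP over input in the stretch, relative to the mean of all arrays, was 0.17, 0.17 and 0.32 in CC9dunni. In CC9spretus and CC9pahari it was -0.22 to 0.07. The stretch was picked for a low CC9dunni input, the denominator of this ratio, so the higher CC9dunni values carry no test. CC9dunni replicate 3, the lowest in both channels, was scanned in the later scan period on another slide than replicates 1 and 2.

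Over the whole segment, the IP was also higher in CC9mus, by less than the input and with a wide spread. The IP difference between distal and proximal chromosome 6 was 0.44, -0.0012 and 0.13 in CC9mus replicates 1, 2 and 3. CC9spretus had -0.06, -0.04 and -0.04, CC9dunni -0.10, -0.11 and -0.12, and CC9pahari -0.01, -0.03 and -0.07. All 3 CC9mus arrays lay above the 9 others, and replicate 2 lay close to CC9pahari replicate 1.

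CC9mus averaged 0.19 ± 0.23 (SD, n = 3) and the other arrays -0.06 ± 0.04 (SD, n = 9), a difference of 0.25. The exact two-sided permutation test over arrays gave p = 0.00455, the smallest that 220 choices of 3 arrays allow, and an adjusted p of 0.0182 over the 4 lines. The same exact test gave adjusted p-values of 0.327 for CC9dunni, 0.70 for CC9spretus and 0.70 for CC9pahari. Without CC9mus replicate 1 the difference was 0.13 (exact permutation p = 0.0182, adjusted p = 0.0727). Without any 1 CC9mus array the adjusted p could not go below 0.0727, so the threshold was out of reach there. The threshold was also missed over probes well above background (0.21), with normexp (0.19) and in the distal part of the segment (0.17), each with an adjusted exact permutation p of 0.0909. With chromosomes other than 6 as the reference it was 0.38. Within the later scan period, 3 CC9mus arrays against 3 others, it was 0.26 with an exact permutation p of 0.10, the smallest possible there (adjusted p = 0.40). The IP was drawn from the same DNA as the input that set the bound, and the part of the input in the IP difference was not tested.

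**Figure D3:**
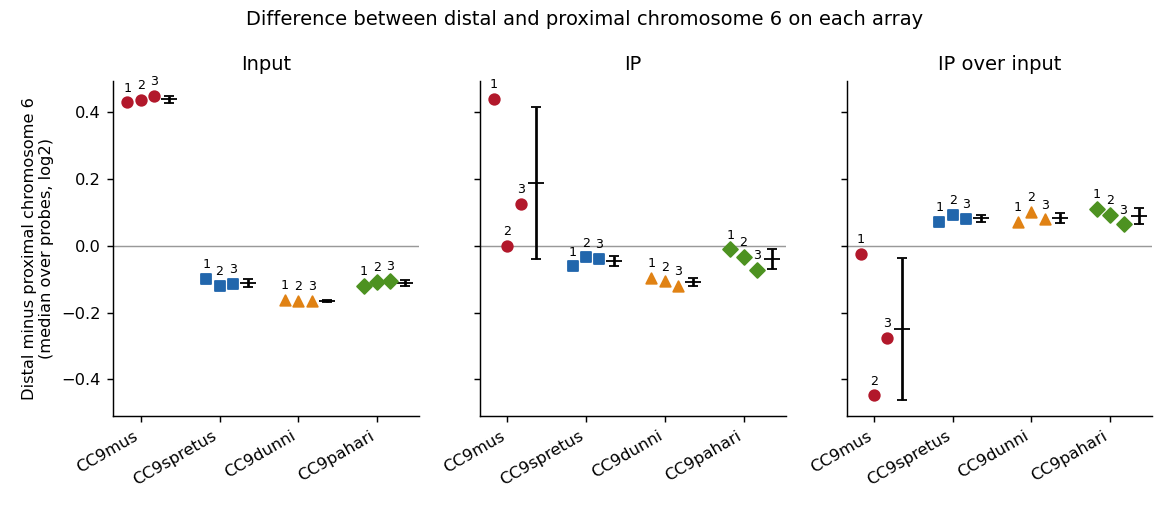
Median over distal probes minus median over proximal chromosome 6 probes (log2) for input, IP and IP over input, 1 point an array numbered by replicate, with the mean and SD of each line (n = 3) in black. The CC9mus input points sit together at 0.43 to 0.45, its IP points run from -0.0012 to 0.44, and its ratio points lie below those of every other array.

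At single probes the IP gain was less common than the input gain. The 3 CC9mus IP arrays lay above all 9 others at 345 of 2615 segment probes (13.2%), at 8.74% of proximal probes and, as the background, at 5.3% of all probes. At the level of loci, the CC9mus IP was above the mean of CC9spretus and CC9pahari at 322 of 445 segment loci and at 107 of 235 proximal loci. As a background by probe, the mean CC9mus IP was above that of CC9spretus at 65.7% of segment probes and 46.6% of probes on other chromosomes. Against CC9pahari these shares were 64.8% and 43.0%.

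The ratio of IP over input was lower on distal than on proximal chromosome 6 in CC9mus and higher in the other lines. The difference was -0.02, -0.45 and -0.28 in CC9mus replicates 1, 2 and 3. The other 9 arrays ran from 0.06 to 0.11, with 0.08 ± 0.01 in CC9spretus, 0.08 ± 0.02 in CC9dunni and 0.09 ± 0.02 in CC9pahari (SD, n = 3 each). CC9mus averaged -0.25 ± 0.21 (SD, n = 3), a difference of -0.33 from the other arrays, and every CC9mus array lay below the 9 others. With chromosomes other than 6 as the reference the gap was -0.18, and with arrays scaled to equal spread it was -0.21. The input that set the bound is the denominator of this ratio, so the shift carries no test. The common mean holds CC9mus, so a low CC9mus raises the values of the other lines. Without this mean, the median ratio of distal and of proximal probes was -0.21 and 0.10 in CC9mus. It was -0.03 and -0.08 in CC9spretus and in CC9pahari, and 0.0087 and -0.07 in CC9dunni.

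The input gain was seen at probes of every level of enrichment. All probes were divided into 5 equal groups by their mean ratio over the 9 arrays of the other lines, and distal was set against proximal within each group. The CC9mus input difference was 0.40 to 0.50 on every array in every group, from the least to the most enriched. The IP difference of CC9mus replicate 1 was 0.47 to 0.48 in the lower 4 groups and 0.27 in the highest. In CC9mus replicate 2 it was -0.08 to 0.10, and in replicate 3 it was 0.03 to 0.19. The other 9 arrays ran from -0.20 to 0.08, and replicate 2 lay within their range in 4 of the 5 groups and replicate 3 in the highest group.

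**Figure D4:**
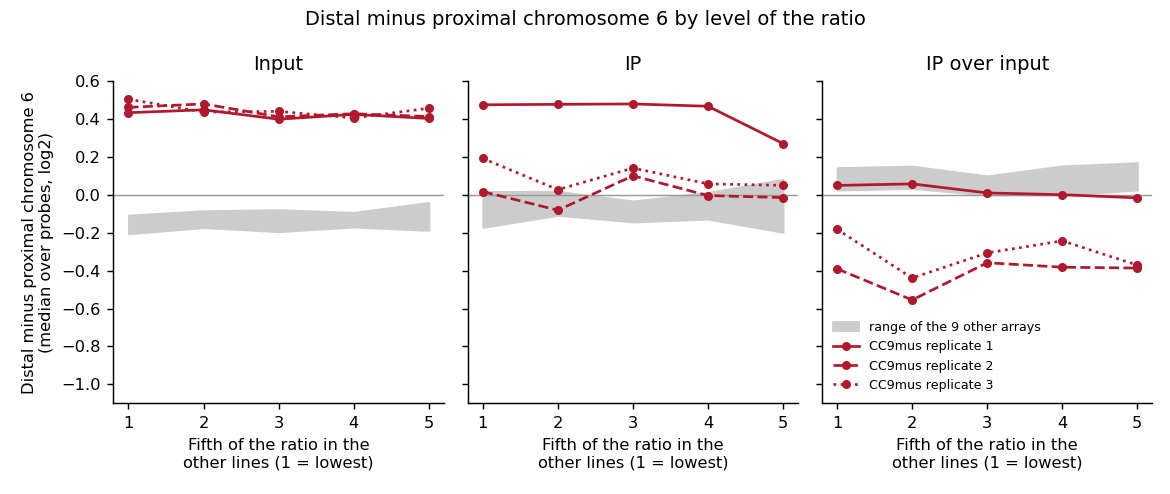
Distal minus proximal chromosome 6 (median over probes, log2) for input, IP and IP over input, in 5 equal groups of probes by the mean ratio of the other lines, from lowest (1) to highest (5). Lines are the 3 CC9mus arrays and the grey band is the range of the 9 other arrays, which the CC9mus input exceeds in every group.

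Single probes were compared with limma over all 88737 probes, each line against the mean of the other 3, with Benjamini-Hochberg adjustment and an adjusted p under 0.05. The ratio holds the input that set the bound as its denominator, so the CC9mus counts and differences in the segment are a description and their p-values no independent support. In CC9mus, 74 segment probes were higher (2.80%) and 94 lower (3.56%), where the background over all probes was 2.76% higher and 1.81% lower. On proximal chromosome 6, 64 probes were higher (4.57%) and 19 lower (1.36%). With the segment and the other probes each centred on their own array medians, 97 segment probes were higher (3.67%, background 2.73%) and 51 lower (1.93%, background 1.77%). The median CC9mus difference of all segment probes was -0.24 in the first case and -0.04 in the second.

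These calls lay close to the threshold and rested on the set of arrays. The adjusted p-values of the 168 called segment probes ran from 0.0405 to 0.0497. Without CC9mus replicate 1, limma called 1198 segment probes, 456 higher and 742 lower, where 19.8% of all probes were higher and 20.6% lower. Without any 1 of the other 11 arrays it called at most 1, with 667 to 912 segment probes at an unadjusted p under 0.05, against 935 with all arrays (35.4%, where the background was 28.9%). A block for scan period, a random block for slide and normexp background correction each left 0 limma calls, with 716, 813 and 817 at an unadjusted p under 0.05, and with arrays scaled to equal spread it called 422 (16.0%, against 12.1% of all probes).

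For the other lines limma called 0 segment probes. At an unadjusted p under 0.05, CC9spretus had 35 segment probes (1.33%), CC9dunni 138 (5.23%) and CC9pahari 104 (3.94%). The shares of all probes were 1.97%, 4.85% and 3.23%, close to those in the segment, and over all probes limma called 1 in CC9spretus (0.00113%, higher) and 0 in CC9dunni and CC9pahari. Of the 138 in CC9dunni, 42 lay in the low-input stretch, where 41 were higher and 1 lower. The stretch was picked for a low CC9dunni input, the denominator of this ratio, so that split carries no test.

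The largest rise in CC9mus was at chr6:127984470-127984514, with ratios of 0.80, 2.61 and 4.63 in its replicates 1, 2 and 3. The other 9 arrays ran from -1.72 to -0.23 with a median of -0.90. The called probes named here were picked for a lack of overlap, so its absence is no separate result. The IP was well above background on 3 of 3 CC9mus arrays and on 7 of the 9 others. The difference was 3.62 ± 0.60 (SE), with 3.85 in IP and 0.21 in input, and it was 1.94 with normexp background correction. The SE here and at the falls below is that of limma, from a spread shared by the 4 lines. At this probe the SD was 1.91 in CC9mus (n = 3) and 0.46 in the other arrays (n = 9).

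Another rise was at chr6:83652907-83652961, where CC9mus had 0.56, 3.48 and 3.75 and the other arrays -2.72 to 0.16, with a median of -0.77. Here the IP was well above background on 3 of 3 CC9mus arrays and on 0 of the 9 others. The input was well above background on 4 of those 9. The ratio of the other lines was thus not measured there, and the difference of 3.50 in these values was 0.82 with normexp background correction.

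Both of the largest falls were picked on the ratio, in a segment bounded on a raised CC9mus input. The input, the denominator of the ratio, is given for them as a description. At chr6:90555020-90555064, CC9mus had -0.64, -1.99 and -1.73 and the other arrays 0.07 to 0.86, with a median of 0.50. The difference in ratio was -1.94 ± 0.29 (SE), while the input was higher by 2.31 and the IP by 0.40. At chr6:124364678-124364722, CC9mus had -0.35, -0.50 and -1.68 and the other arrays 0.43 to 1.47, with a median of 0.99. That difference was -1.83 ± 0.32 (SE), with 1.14 in input and -0.66 in IP.

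In the lines without a called probe, the probe of smallest p is given and did not pass. In CC9spretus it was chr6:148892947-148893002, with -3.38, -1.56 and -1.55 against -1.34 to 0.68 in the other arrays (limma adjusted p = 1.00). The CC9spretus IP was well above background there on 0 of 3 arrays. In CC9dunni it was chr6:72908705-72908751, inside the low-input stretch, with 1.92, 1.73 and 1.25 against -0.96 to 0.67 (limma adjusted p = 0.846), and the input difference was -1.82. In CC9pahari it was chr6:112439818-112439862, with -0.52, -0.27 and -0.67 against 0.30 to 1.73 (limma adjusted p = 0.964).

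Probes were also counted by a mean log2 ratio above 2 or below -2 over the 3 arrays of a line. The study used this size of log2 ratio between samples together with a filter on Z-scores, which was not applied here. Above 2 were 198 segment probes in CC9mus (7.50%), 117 in CC9spretus (4.43%), 111 in CC9dunni (4.20%) and 106 in CC9pahari (4.01%). The shares over all probes were 9.39%, 5.16%, 5.32% and 4.71%, near those of the segment. On proximal chromosome 6 they were 8.86%, 2.29%, 3.79% and 2.43%. Below -2 were 111, 25, 13 and 2 segment probes in the same order, and the shares over all probes were 3.25%, 1.08%, 0.586% and 0.124%. For CC9mus the low share in the segment was 4.20%, and it was 2.93% on proximal chromosome 6. The high rank of CC9mus in segment probes above 2 depended on the setting. With arrays scaled to equal spread, CC9mus had the fewest such probes of any line. The same held with the threshold met on all 3 arrays. With normexp CC9mus lay below CC9spretus, level with CC9pahari and above CC9dunni.

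The threshold counts differed widely between the CC9mus arrays. CC9mus replicate 1, with the smallest spread, had 13 segment probes above 2 and 0 below -2. Replicate 2 had 280 and 513, and replicate 3 had 491 and 262. Without CC9mus replicate 1 the line counts were 382 above and 363 below, without replicate 2 there were 22 below, and without replicate 3 there were 94 above. In the other lines the counts below -2 ran from 6 to 90 in CC9spretus, 3 to 79 in CC9dunni and 1 to 12 in CC9pahari when 1 array was left out. The lowest of these came without CC9spretus replicate 1, without CC9dunni replicate 1 and without CC9pahari replicate 1, and the highest without replicate 3 of each line. Without replicate 2 there were 44 in CC9spretus and 8 in CC9dunni. In CC9mus, normexp background correction gave 60 above (2.27%, against 2.32% of all probes) and 45 below (1.70%, against 0.943%). Arrays scaled to equal spread gave 80 above (3.03%, against 3.74%) and 4 below (0.151%, against 0.30%), so that the low share in the segment turned from above to below that of all probes.

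Above 2 in all 4 lines were 82 segment probes (3.10%), against 3.58% of all probes, and no segment probe was below -2 in all 4. Among the 111 segment probes below -2 in CC9mus, 103 were below it in no other line (92.8%), and over all probes the share was 90.4%.

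Most segment loci were little enriched, and a few stood out in every line. Over the 405 loci of 3 or more probes, the mean ratio of the 12 arrays had a median of -0.07 and ran from -1.39 to 5.80, with 21 loci above 2. The highest was chr6:135994125-135994567, with 5.81 ± 2.27 in CC9mus, 6.20 ± 1.35 in CC9spretus, 5.51 ± 1.24 in CC9dunni and 5.69 ± 0.80 in CC9pahari (SD, n = 3 each). Its arrays ran from 3.24 in CC9mus replicate 1 to 7.75 in CC9spretus replicate 3, and the lines overlapped.

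The second, chr6:135682934-135683340, had 1.81, 4.72 and 5.26 in CC9mus, and 5.08 to 6.95 in the other arrays. The third, chr6:84084973-84085807, had 2.17, 4.83 and 6.59 in CC9mus, around the 5.16 to 5.81 of the others. At all 3 loci, the IP was well above background on every spot, and CC9mus replicate 1 was the lowest array.

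The lowest locus, chr6:92133562-92134162, had -0.52, -2.84 and -2.0 in CC9mus and -1.79 to -0.80 in the other arrays. At chr6:119338161-119339141 CC9mus had -0.21, -1.98 and -2.22, and at chr6:86799711-86800014 it had -0.57, -1.76 and -2.22. The IP was well above background at 44 of 72, 29 of 48 and 22 of 36 spots of these loci, so the low ratios rest in part on IP near background. In each of them CC9mus replicate 1 was nearest to 0 among the CC9mus arrays and replicates 2 and 3 lay below all others.

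The Nanog-Dppa3 interval was taken as chr6:122500000-122800000 and held 17 probes in 4 loci, the first of them 214 kb into the interval. No mm9 annotation was used here, so none of these probes could be assigned to Nanog, Dppa3 or a neighbour. The median ratio over the 17 probes was -0.31, -1.03 and -0.78 in CC9mus replicates 1, 2 and 3. It was -0.98, -0.46 and -0.20 in CC9spretus, -0.35, -0.41 and -0.15 in CC9dunni, and -0.11, -0.0068 and -0.05 in CC9pahari. CC9pahari was highest with -0.06 ± 0.05, then CC9dunni with -0.31 ± 0.14, CC9spretus with -0.55 ± 0.39 and CC9mus with -0.71 ± 0.37 (SD, n = 3 each). CC9pahari and CC9dunni did not overlap, while CC9dunni and CC9spretus, and CC9spretus and CC9mus, did. The order depended on the processing. With arrays scaled to equal spread CC9spretus was the lowest (-0.24 from the other arrays, against -0.23 in CC9mus). With normexp CC9pahari and CC9dunni both differed from the other arrays by 0.20. CC9mus differed by -0.41 from the mean of the other arrays, by -0.61 without its replicate 1, by -0.24 without its replicate 2 and by -0.23 with arrays scaled to equal spread.

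In the limma fit of all arrays described above, no probe of the interval passed in any line. The lowest adjusted p was 0.056 for CC9mus, at chr6:122751807-122751851, and 7 of the 17 (41.2%) had an unadjusted p under 0.05 in CC9mus, where the background was 28.9%. In that contrast 15 of the 17 probes had a lower ratio in CC9mus (88.2%), as had 61.7% of segment probes and 53.2% of all probes. Above 2 in the mean of a line were 0 probes, and 2 were below -2, both in CC9mus, where 3.25% of all probes were below -2. Some other settings gave calls in CC9mus. Without CC9mus replicate 1, limma called 9 of the 17, all lower, where 20.6% of all probes were lower. With arrays scaled to equal spread it called 2 (11.8%, against 12.1% of all probes). Without centring it called 1, and 1 of 15 with dim input left out, against 5169 of 88737 and 5026 of 80928 probes.

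The first locus, chr6:122714299-122715176 with 8 probes, had ratios of -0.36, -1.93 and -1.64 in CC9mus, and -1.29 to -0.07 in the other arrays, with a median of -0.34. Its input was 0.62, 0.66 and 0.56 in CC9mus and -0.34 to 0.14 in the others. The input did not overlap, while the ratio of CC9mus replicate 1 fell among the other lines.

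The second locus, chr6:122751520-122752021 with 4 probes, had ratios of -0.42, -1.24 and -0.96 in CC9mus and -0.59 to -0.07 in the others. The CC9mus input was 0.42, 0.32 and 0.47, against -0.31 to 0.07, again without overlap.

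Loci 3 and 4, chr6:122761213-122761673 and chr6:122769672-122769806, overlapped in both measures. Their CC9mus ratios were -0.06, -0.15 and -0.69 at locus 3 and 0.05, -0.54 and -0.45 at locus 4. In the other arrays they ran from -1.0 to 0.21 and from -1.11 to -0.29. The CC9mus input was 0.05, 0.04 and 0.23 at locus 3 and 0.09, 0.16 and -0.43 at locus 4, within or beside the -0.59 to 0.38 and -0.17 to 0.20 of the other arrays. These loci have 3 and 2 probes, and the input gain of the segment was seen without overlap at loci 1 and 2 of the interval and not at loci 3 and 4.

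**Figure D5:**
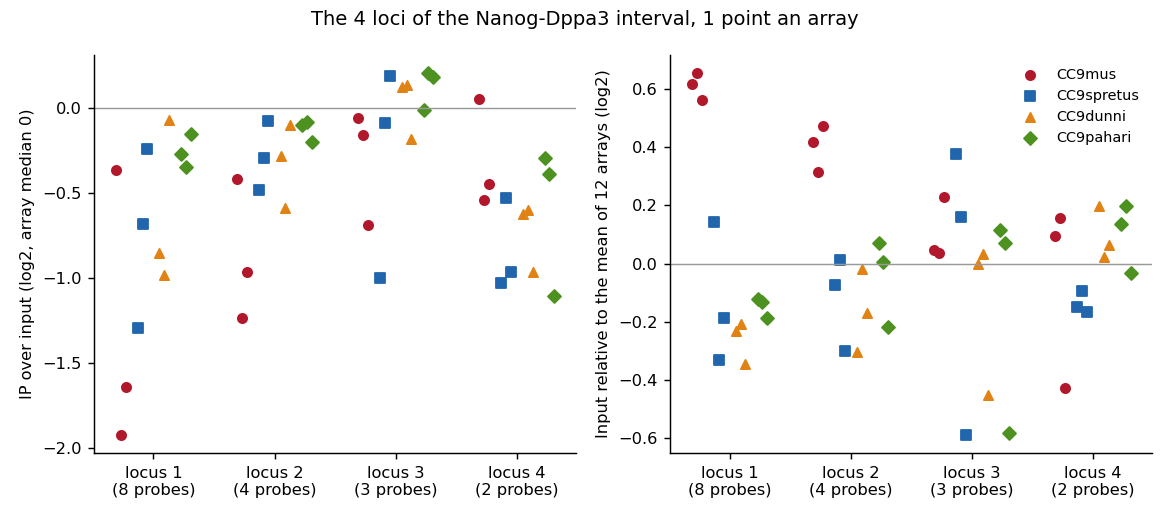
Ratio of IP over input (left) and input relative to the mean of 12 arrays (right), log2, at the 4 loci of the Nanog-Dppa3 interval in chromosomal order, 1 point an array, mean ratio and median input over the probes of a locus. CC9mus input lies above all other arrays at loci 1 and 2, where the ratios of its replicates 2 and 3 lie below all others.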

How the data were processed

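Arrays were 2-colour Agilent mouse CpG island arrays (mm9), 12 in all. The authors' scans were processed with Agilent Feature Extraction 11.0.1.0, which gave the deposited signal intensities, background-subtracted and dye-normalized, and log10 ratios of Cy5 over Cy3. There was no dye swap. From the intensity values log2 input, log2 IP and their difference were computed, spots flagged as outliers were left out, 5950 control spots were removed, and the median of every array was set to 0. Differences are on the log2 scale, and values given as times are linear ratios. The deposited log10 ratio table equalled the scanner ratios and was an alternative only. Of all probes, 416 had no chromosome position.

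Lines were compared with limma 3.58.1 (R 4.3.3) and exact permutation tests (Python 3.11.15). The limma code was tested on simulated data with the same spread for all probes and arrays. That test does not cover the unequal spread of the CC9mus arrays. Alternatives were normexp (offset 50), other centring, scaling, references and blocks, and each array left out.

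Named probes were, for each line, up to 2 rises and 2 falls of largest size among segment probes with adjusted p under 0.05 and 3 arrays beyond the 9 others, 1 a locus, or otherwise the probe of smallest p. Named loci were those of the interval, the 3 highest and 3 lowest of at least 3 probes, and those next to the bound. Loci of the CC9dunni stretch and of the distal end were chosen after their values were seen. Members and lists were chosen with earlier results of these data known. The 12 arrays limit the precision.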

Additional observations from a re-analysis of the deposited data

Results flagged for a closer look

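The IP level of distal relative to proximal chromosome 6 differed between CC9mus and the other lines by 0.25 on the log2 scale. It is listed because the test of the difference over arrays passed its threshold (exact two-sided permutation test, adjusted p = 0.0182, higher in 3 of 3 CC9mus arrays). The call was lost under several alternatives, among them normexp, with 0.19 and an adjusted exact permutation p of 0.0909. The CC9mus arrays ranged from -0.0012 to 0.44, and the same 3 arrays had an input difference of 0.43 to 0.45. The part of the input was not tested.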

How the results depend on the processing

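The CC9mus input difference of 0.57 was 0.55 with the rest of the genome as reference, 0.55 as a mean over probes, 0.45 with normexp, 0.53 in the distal part of the segment, and 0.56 to 0.57 with 1 array left out. It was 0.54 without the CC9dunni stretch, an alternative chosen after seeing the data, as were matching by ratio and scaling of the segment ratio to equal spread. The CC9mus IP difference lost its call, with p adjusted over the lines, over bright probes (0.21), with normexp (0.19), in the distal part (0.17), within the later scan period (0.26) and without any 1 CC9mus array. It was 0.13 to 0.33 with 1 array left out. With 1 array left out, the IP difference of CC9dunni ran from -0.15 to -0.093, and that of CC9pahari from -0.064 to 0.0090. Over the other settings CC9dunni ran from -0.20 within the later scan period to -0.031 within the earlier one, and CC9pahari was 0.032 within the earlier one. Within that period the CC9spretus values were 0.028 in input and -0.014 in ratio, and the CC9pahari input was 0.012, each of the opposite sign. In the Nanog-Dppa3 interval the CC9spretus difference of -0.19 was 0.050 over probes well above background and 0.059 with normexp, and -0.36 to 0.027 with 1 array left out.

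limma called 0 segment probes in CC9mus with normexp, with the scan period as a block and with the slide as a random block, 422 with equal spread, and 0 to 1198 with 1 array left out. CC9dunni had 1 with equal spread, of 21 over all probes. With the replicate number as a block (replicate block) it called 319 (12.1%, against 8.42% of all probes). Of 18 same-numbered pairs of arrays, 12 had deviations correlated over 0.1 (range -0.38 to 0.54) and 5 of 12 arrays correlated best with their own number, so the numbers were not taken as pairs.

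Probes above 2 on all 3 arrays numbered 13, 98, 90 and 92 in CC9mus, CC9spretus, CC9dunni and CC9pahari. These were 0.492%, 3.71%, 3.41% and 3.48%, against 0.711%, 3.86%, 4.06% and 3.62% of all probes. Those below -2 on all 3 arrays were 0, 1, 0 and 0 in the same order (1, 28, 2 and 5 over all probes). With normexp 60, 72, 49 and 60 were above (2.27%, 2.73%, 1.86% and 2.27%, against 2.32%, 2.77%, 2.13% and 2.17% of all probes) and 45, 1, 0 and 0 below (837, 25, 6 and 0 over all probes). With equal spread 80 were above in CC9mus (3.03%, against 3.74%), the fewest of any line. In the main counts CC9mus had the most above. Those below with equal spread were 4, 48, 44 and 5 (0.151%, 1.82%, 1.67% and 0.189%, against 0.30%, 1.87%, 1.74% and 0.411%). With 1 array left out, counts above ran from 94 to 382, 107 to 130, 110 to 119 and 99 to 118, and those below from 22 to 363, 6 to 90, 3 to 79 and 1 to 12. The cause of these changes was not tested.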
